A study of Homo sapiens with 6 samples.

Results

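The ubiquitin-conjugating enzymes named UBE2 and the ubiquitin-specific proteases named USP were followed in HaCaT cells kept with or without histamine. Members were chosen by gene symbol in the probe annotation, as UBE2 plus letters or USP plus a number. Left out were 8 pseudogenes and UBE2C, UBE2S, UBE2L6 and USP18, which the rule sets aside. This gave 79 genes of the 20046 named on the array, 23 UBE2 genes on 44 probes and 56 USP genes on 82 probes. HaCaT is an immortalized line of human skin keratinocytes, grown here in DMEM with calcium and fetal calf serum. The histamine group had received 1 µg/ml for 24 h and the control group is labelled as such, each with 3 Illumina HT-12 bead arrays, numbered here as replicates 1 to 3. All samples come from the same line. No source used here states whether replicates were grown as separate cultures, so each p-value reflects only how these samples vary, in part perhaps technically.

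Ubiquitin is attached to proteins by a relay. An E1 enzyme activates it, an E2 conjugating enzyme (mostly the UBE2 genes) carries it on a cysteine, and an E3 ligase brings the carrier to the substrate. The E2 helps to set which chain is built, and so whether the substrate goes to the proteasome, changes its partners or moves to another compartment. Some E2 enzymes carry the related modifiers NEDD8 or SUMO in place of ubiquitin. Ubiquitin-specific proteases, the largest family of deubiquitinases, cut ubiquitin off again. In keratinocytes this machinery acts on growth factor receptors, NF-kB signalling and DNA repair, among many other targets.

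Median raw signal was 120.8 to 141.5 per array, and 36.7 to 40.9% of probes were detected. Arrays differed in ways that touch the values below. Sample names of the groups come from separate numbered series and no slide or scan record is given, so group and batch cannot be told apart. The first principal component of the 10406 genes tested placed control replicate 3 at -15.5, against -29.1 and -26.0 for the other control arrays and 21.5 to 27.1 for the histamine arrays. Keratinocyte markers were detected on every array (7 of 7 genes named on it). Of 11 skeletal muscle markers, 11 were detected on histamine replicate 1, 7 and 8 on replicates 2 and 3, and 1 to 3 on the control arrays. Their summed log2 intensity was 15.3, 10.9 and 10.7 in the histamine arrays against 9.24 to 9.25 in the controls. Of 4 immune cell markers 2, CD68 and CD14, were detected on every array, while PTPRC and CD3E were detected on none; the summed log2 intensity of the 4 ranged from 9.91 to 10.1 in the controls and was 10.4 in each histamine array. Fibroblast markers were detected for 0 to 2 of 5 genes per array, melanocyte markers for 0 to 2 of 3, and endothelial markers for 0 or 1 of 4. The part of these markers in the results was not tested. Calls that changed without histamine replicate 1 are given in the text below, except that those of UBA1 and ELOB were not followed in such fits.

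Conjugating enzymes were called in both directions. The 3 USP genes that were called fell, 9.68% of those measured, where 12% of all genes tested fell. Of the 20 UBE2 genes measured, 5 rose with histamine (UBE2Q2, UBE2F, UBE2J2, UBE2V2 and UBE2E1), 2 fell (UBE2G2 and UBE2A) and 13 did not pass. Of the 31 USP genes measured, none rose, 3 fell (USP34, USP9X and USP24) and 28 did not pass. A gene was called at a limma adjusted p-value under 0.05 over all 10406 genes tested, of which 9.29% rose, 12% fell and 21.3% changed in either direction. The called share was thus 35% in the UBE2 family and 9.68% in the USP family; the difference between families was not tested, since members are not replicates. At an unadjusted p-value under 0.05, 2 USP genes were higher and 9 lower, against 5 and 4 UBE2 genes and 1436 and 2147 of the 10406 genes tested. Without histamine replicate 1 the calls were 3 higher and 1 lower for UBE2 and 1 and 1 for USP genes, and without control replicate 3 they were 4 and 2 for UBE2 and 0 and 4 for USP genes. In the same fits 785 genes in all were higher and 820 lower without histamine replicate 1, and 1091 and 1456 without control replicate 3. On the brightest kept probe of each gene, which these calls use, no member changed 2-fold. By that measure 2 UBE2 genes and 1 USP gene differed by more than 1.5-fold. Other kept probes went further for USP8 (1.44 on the log2 scale), UBE2H (0.76) and USP13 (-0.72).

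The median log2 difference, histamine minus control, was -0.0009 for UBE2 and -0.09 for USP genes, against -0.08 over all genes tested. Quartiles were -0.28 and 0.29 for UBE2 and -0.33 and 0.17 for USP genes. Member values ranged from -0.59 to 0.79 and from -0.60 to 0.58, the last being USP43, which was detected on histamine arrays alone. Per array, the median deviation of UBE2 genes from their control means was -0.07, 0.03 and 0.02 in the control and -0.05, -0.07 and 0.04 in the histamine arrays. That of USP genes was -0.003, 0.04 and -0.03 in the control and -0.12, -0.10 and -0.18 in the histamine arrays. The histamine arrays therefore lay below the control arrays for the USP median and overlapped them for the UBE2 median. Over all genes tested the same medians were 0.02, 0.01 and -0.02 in the control and -0.09, -0.06 and -0.06 in the histamine arrays. The groups did not overlap for 6 UBE2 genes in the upward and 5 in the downward direction, and for 3 (USP43 among them) and 9 USP genes, where 14.4% and 22.9% of all genes did so.

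Precision was not equal. Standard errors of the log2 differences had a median of 0.13 for UBE2, 0.19 for USP and 0.17 for all genes. All 20 measured UBE2 genes were detected on all 6 arrays, and 25 of the 31 USP genes. Of the 3 UBE2 and 25 USP genes left out by the detection filter, 2 and 16 were detected on no array. UBE2B, a DNA repair enzyme closely related to UBE2A, was among the undetected, as were USP25 and USP45. The 8 copies of the USP17L multigene family on the array, whose probes may read each other's transcripts, were also left out. Median scaling, used instead of quantile normalization, shifted the all-gene median from -0.08 to -0.26. Calls were then 1 higher and 2 lower among UBE2 genes, and 0 and 5 among USP genes. Relative to the median of all genes, the UBE2 median lay at 0.08 with quantile normalization and 0.06 with median scaling, and the USP median at -0.01 and -0.03. With the stricter detection filter (24 USP genes) the USP median lay at -0.11 relative to all genes, and without control replicate 2 at 0.06.

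**Figure D1:**
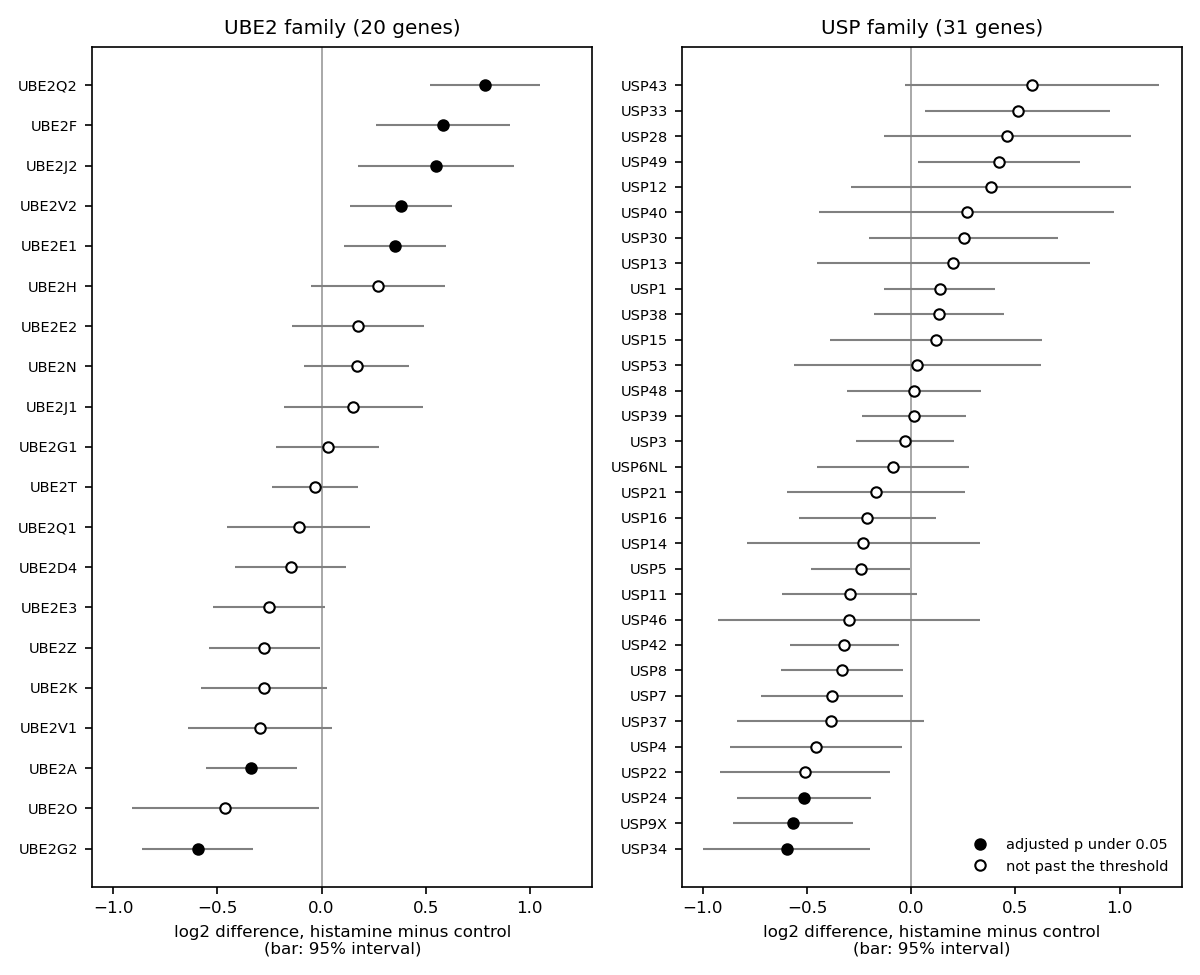
Log2 difference between histamine and control arrays for the 20 UBE2 genes (left) and 31 USP genes (right) measured, with 95% intervals (n = 3 arrays per group). Filled points passed the test, 5 higher and 2 lower among UBE2 genes and 3 lower among USP genes.

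UBE2Q2, an E2 enzyme with a long N-terminal extension, had the largest difference of either family on the brightest probes. Its normalized log2 intensity was 9.07, 9.21 and 9.19 on control replicates 1, 2 and 3, and 9.83, 10.12 and 9.87 on the histamine arrays. Every histamine array lay above every control array. It rose 1.72-fold, by 0.79 ± 0.13 on the log2 scale (SE, n = 3 per group; limma adjusted p = 0.000333). UBE2Q1, its paralog, did not pass (-0.11, 95% interval -0.45 to 0.23). The call of UBE2Q2 held under each of the 16 alternatives tried, with differences from 0.58 to 0.84, and the difference was 0.84 without histamine replicate 1.

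UBE2G2, the enzyme that builds Lys48 chains for degradation at the endoplasmic reticulum, had the largest decrease among conjugating enzymes. Control arrays read 9.56, 9.78 and 9.73 and histamine arrays 9.01, 9.09 and 9.18, without overlap. It fell 1.51-fold, by 0.59 ± 0.13 on the log2 scale (limma adjusted p = 0.00310). Its call too held under each of the 16 alternatives, from -0.80 to -0.48, and the difference was -0.55 without histamine replicate 1. The other Lys48 enzymes did not pass. UBE2G1, its paralog, differed by 0.03 (95% interval -0.22 to 0.28) and UBE2K by -0.28 (-0.58 to 0.03), while UBE2R2 was not measured.

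Promoter sequences are shown for UBE2Q2 and UBE2G2, the called UBE2 genes with the largest increase and decrease. Also shown are those of UBE2F, the next largest increase, and USP34, the called USP gene with the largest decrease. They run from 250 bases before to 50 bases after the first listed start of transcription in RefSeq (build GRCh38.p14), 5′ to 3′ on the gene's strand. Of the 79 members 56 had an entry in that table, and 7 of the 10 called members. Capitals mark matches, on either strand, to 9 short motifs.
UBE2Q2 promoter (chr15:75843197-75843496, plus strand): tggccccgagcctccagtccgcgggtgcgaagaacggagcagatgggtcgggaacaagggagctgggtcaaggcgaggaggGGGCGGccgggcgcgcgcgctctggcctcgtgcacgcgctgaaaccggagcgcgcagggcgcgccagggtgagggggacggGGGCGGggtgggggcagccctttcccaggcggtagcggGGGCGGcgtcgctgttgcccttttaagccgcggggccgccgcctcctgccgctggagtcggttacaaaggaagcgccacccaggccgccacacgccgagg
UBE2F promoter (chr2:237966764-237967063, plus strand): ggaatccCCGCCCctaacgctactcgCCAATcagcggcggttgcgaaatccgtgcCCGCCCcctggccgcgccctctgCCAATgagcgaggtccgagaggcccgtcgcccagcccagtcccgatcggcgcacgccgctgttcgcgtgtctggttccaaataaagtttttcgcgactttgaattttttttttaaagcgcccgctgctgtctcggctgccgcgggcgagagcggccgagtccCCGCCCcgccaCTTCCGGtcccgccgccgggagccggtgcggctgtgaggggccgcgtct
UBE2G2 promoter (chr21:44801771-44802070, minus strand): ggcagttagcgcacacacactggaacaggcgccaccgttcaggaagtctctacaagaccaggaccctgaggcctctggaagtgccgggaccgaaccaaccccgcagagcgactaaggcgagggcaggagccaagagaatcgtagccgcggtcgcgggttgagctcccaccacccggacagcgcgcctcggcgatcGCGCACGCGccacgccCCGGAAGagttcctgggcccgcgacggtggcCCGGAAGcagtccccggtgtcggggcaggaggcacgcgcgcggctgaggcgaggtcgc
USP34 promoter (chr2:61471038-61471337, minus strand): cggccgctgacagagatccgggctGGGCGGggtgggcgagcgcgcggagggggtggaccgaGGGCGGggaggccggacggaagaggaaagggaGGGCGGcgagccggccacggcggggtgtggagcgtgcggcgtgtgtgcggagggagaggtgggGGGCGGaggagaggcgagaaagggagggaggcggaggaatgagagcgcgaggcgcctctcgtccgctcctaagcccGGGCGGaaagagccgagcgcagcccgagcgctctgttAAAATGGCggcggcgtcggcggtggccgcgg

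The UBE2Q2 promoter held 3 matches of the SP and KLF motif GGGCGG and none of the other motifs. That of UBE2F held 3 of them with 2 matches of the NF-Y motif CCAAT and 1 of the ETS motif CCGGAAG. In the UBE2G2 promoter were 2 matches of the ETS motif and 1 of the NRF1 motif GCGCANGCG. The USP34 promoter had 5 matches of the SP and KLF motif and 1 of the YY1 motif AANATGGC. None of the 4 promoters held the E-box CACGTG, the CRE motif TGACGTCA, the AP-1 motif TGANTCA or the NF-kB motif GGGANTTCC. Among all 35116 promoters of the table, 45.0% held the SP and KLF motif, 34.6% that of NF-Y, 10.3% that of ETS, 7.52% that of NRF1 and 6.58% that of YY1. E-box, CRE, AP-1 and NF-kB motifs were in 7.26%, 1.85%, 7.71% and 1.85% of them. Of the measured UBE2 genes 17 had a promoter in the table, and the NRF1 motif was in 8 of them; for USP genes it was in 4 of 25. The SP and KLF motif was in 14 of the 17 and in 21 of the 25. These are measured genes with 1 promoter each, whereas the 35116 promoters include genes not measured here. No share over all measured genes was computed, so the counts cannot show whether the families differ from other measured genes. A match describes letters in this window and is no evidence of binding.

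Enzymes of ubiquitin-like modifiers were represented by UBE2F and UBE2Z. UBE2F, which passes NEDD8 to the cullin CUL5 through RNF7, read 10.15, 9.98 and 10.76 on the control and 10.94, 10.87 and 10.83 on the histamine arrays. Control replicate 3 lay close to the histamine arrays, 0.85 of the distance between the mean of the other control arrays and the histamine mean. UBE2F rose by 0.58 ± 0.15 (limma adjusted p = 0.0118). Leaving out control replicate 1 or 2 ended the call (adjusted p = 0.0580 and 0.0886 in limma), as did median scaling (0.37, adjusted p = 0.126) and a fit without the intensity trend (0.0929). UBE2Z, which takes ubiquitin or FAT10 from UBA6, differed by -0.28 (95% interval -0.54 to -0.01; limma adjusted p = 0.133), and its groups did not overlap.

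Of the ER-anchored enzymes UBE2J2 rose and UBE2J1 did not pass. UBE2J2 read 7.38, 7.65 and 7.29 on the control and 7.83, 7.96 and 8.19 on the histamine arrays, all higher. The difference was 0.55 ± 0.18 (limma adjusted p = 0.0355). Its call was lost in limma without control replicate 1 or 3 (adjusted p = 0.0982 and 0.0796) or histamine replicate 2 or 3 (0.0715 and 0.149), and with median scaling (0.34). Averaging its probes, keeping dim probes or dropping the intensity trend ended it too (limma adjusted p = 0.237, 0.0902 and 0.0521). UBE2J1 differed by 0.15 (95% interval -0.18 to 0.49).

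Lys63 chains are built by UBE2N with a catalytically inactive partner, UBE2V1 or UBE2V2. UBE2V2 read 10.56, 10.76 and 10.93 on the control and 11.23, 11.17 and 10.99 on the histamine arrays, with control replicate 3 0.58 of that distance above the other controls. It rose by 0.38 ± 0.12 (limma adjusted p = 0.0276). The call ended without control replicate 1 or 2 (limma adjusted p = 0.116 and 0.0759) or histamine replicate 1 or 2 (0.104 and 0.0848), and with median scaling (0.18). No filter on dim probes and no intensity trend ended it too (limma adjusted p = 0.0547 and 0.113). UBE2V1 read 8.32, 8.61 and 8.27 against 8.31, 7.91 and 8.08, overlapping, and differed by -0.30 (95% interval -0.64 to 0.05). A read-through transcript shares its sequence, and its other kept probe gave 0.25. UBE2N differed by 0.17 (-0.08 to 0.42).

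Among the enzymes that work with many ligases, UBE2E1 read 11.07, 11.24 and 11.52 on the control and 11.67, 11.66 and 11.55 on the histamine arrays. Groups did not overlap, with control replicate 3 0.77 of that distance above the other controls. The difference was 0.35 ± 0.12 (limma adjusted p = 0.0370). Leaving out any 1 array except control replicate 3 ended the call (limma adjusted p = 0.0587 to 0.157), and median scaling left 0.16. Averaging its probes, dropping the intensity trend or keeping dim probes ended it too (limma adjusted p = 0.200, 0.144 and 0.0801). Its paralogs did not pass. UBE2E2 read 8.20, 8.56 and 8.39 against 8.45, 8.60 and 8.62 (difference 0.18, 95% interval -0.14 to 0.49). UBE2E3 read 10.16, 10.64 and 10.50 against 10.10, 10.18 and 10.26 (-0.25, -0.52 to 0.02), and passed the test without control replicate 1 (-0.39, limma adjusted p = 0.0415). UBE2D4, the single UBE2D gene measured, read 9.63, 9.54 and 9.70 against 9.53, 9.31 and 9.58 (-0.15, -0.41 to 0.12). Outside this group, UBE2H differed by 0.27 on its brightest probe (-0.05 to 0.59).

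DNA repair was represented by UBE2A and UBE2T. UBE2A, partner of the ligase RAD18, read 11.11, 11.23 and 11.02 on the control and 10.76, 10.79 and 10.80 on the histamine arrays, all lower. It fell by 0.34 ± 0.10 (limma adjusted p = 0.0281), a call lost without any 1 array except control replicate 3 (limma adjusted p = 0.0552 to 0.116) or without the intensity trend (0.0974). UBE2T, the E2 of the Fanconi anaemia pathway, read 11.70, 11.89 and 11.72 against 11.72, 11.78 and 11.72. Its difference of -0.03 had a 95% interval of -0.24 to 0.17. UBE2O, a large enzyme that acts as E2 and E3 at once, differed by -0.46 (-0.91 to -0.01) without overlap of the groups and did not pass (limma adjusted p = 0.134).

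**Figure D2:**
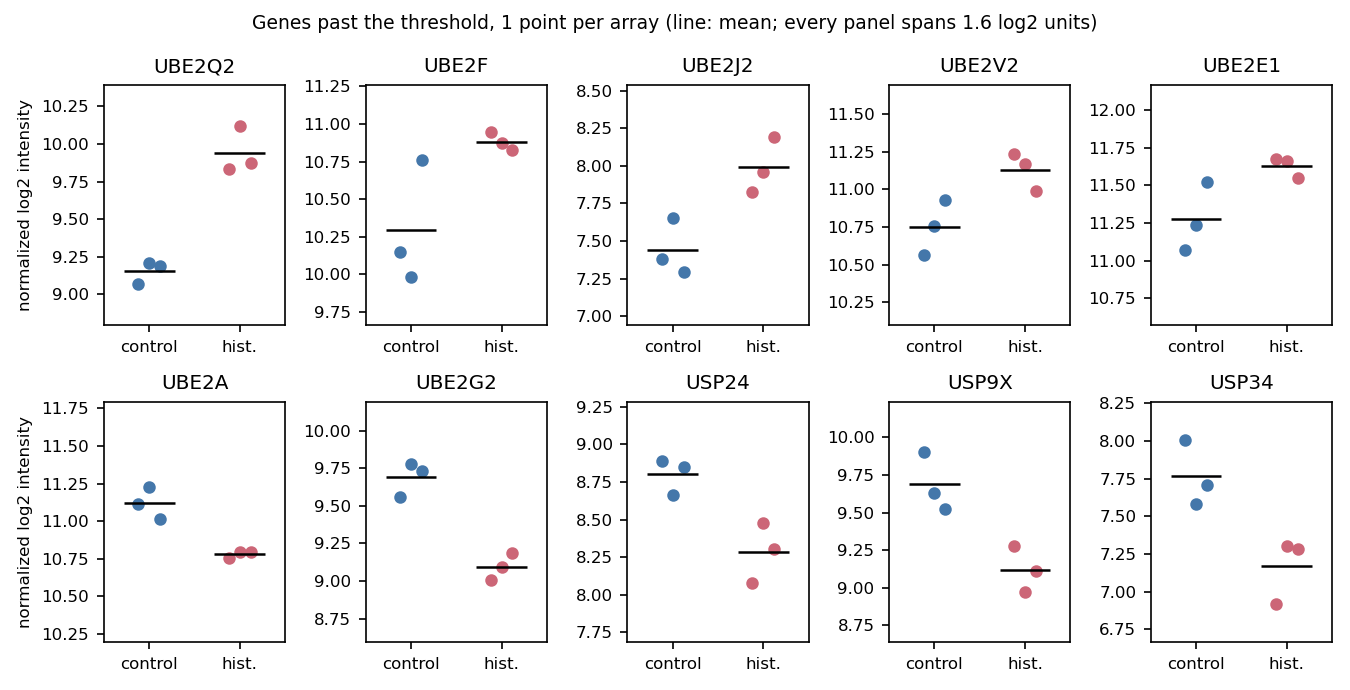
Normalized log2 intensity of the 10 called genes on each array, with group means as lines (n = 3 per group). Groups do not overlap in any panel, and control replicate 3 is the highest control point of UBE2F, UBE2V2 and UBE2E1.

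The proteases that fell are all large enzymes. USP34, which stabilizes axin in Wnt signalling, read 8.01, 7.58 and 7.71 on the control and 6.92, 7.30 and 7.28 on the histamine arrays. All histamine arrays lay below the control arrays. It fell by 0.60 ± 0.19 (limma adjusted p = 0.0333). Without control replicate 1 or 2 the limma adjusted p was 0.151 and 0.0537, and without histamine replicate 1 or 3 it was 0.134 and 0.0509, and each of these ended the call. The difference without histamine replicate 1 was -0.47. No filter on dim probes and no intensity trend also ended the call (limma adjusted p = 0.0992 and 0.0519). USP9X, which acts on substrates such as MCL1 and SMAD4, read 9.91, 9.63 and 9.53 against 9.28, 8.97 and 9.11. It fell by 0.57 ± 0.14 (limma adjusted p = 0.00740), a call held under each of the 16 alternatives, from -0.77 to -0.46. USP24, linked to the DNA damage response, read 8.89, 8.66 and 8.85 against 8.08, 8.48 and 8.30, and fell by 0.51 ± 0.15 (limma adjusted p = 0.0236). Its call ended without control replicate 1 (limma adjusted p = 0.0821) or histamine replicate 1 or 3 (0.107 and 0.0573), and without the intensity trend (0.0540).

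Proteases that act on histones had 6 of 9 members measured and no call. Their median log2 difference was -0.19. Of all genes 21.3% were called, with a median of -0.08. USP22, the protease of the SAGA complex, differed by -0.51 ± 0.19 without overlap of the groups (limma adjusted p = 0.0674). It passed without histamine replicate 2 (-0.66, limma adjusted p = 0.0362) and with median scaling (-0.71). USP42, a histone H2B protease, differed by -0.32 (95% interval -0.58 to -0.06). USP49, which acts on histone H2B, differed by 0.42 (0.03 to 0.81), and passed without histamine replicate 1 (0.60, limma adjusted p = 0.0377). USP3 read 9.99, 10.12 and 10.10 against 10.00, 10.08 and 10.04, a difference of -0.03 (-0.26 to 0.21). USP16, a histone H2A protease of mitosis, differed by -0.21 and USP21 by -0.17.

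Proteases of the proteasome and of free chains did not pass. USP5, which recycles unanchored ubiquitin chains, read 10.51, 10.54 and 10.34 against 10.10, 10.29 and 10.28, without overlap (-0.24, 95% interval -0.48 to -0.004). USP14, which binds the proteasome's regulatory particle, differed by -0.23 (-0.79 to 0.33). USP13 differed by 0.20 on its brightest probe, which read 7.05, 6.31 and 5.93 on the control and 7.31, 6.48 and 6.11 on the histamine arrays. Replicate 1 was the highest array in both groups, and also for USP40 (5.98, 5.58 and 5.12 against 6.57, 5.18 and 5.74). USP7, which stabilizes MDM2 and p53, differed by -0.38 (-0.72 to -0.04; limma adjusted p = 0.105) and passed without control replicate 3 (-0.52, limma adjusted p = 0.0268). USP28, of MYC and checkpoint control, differed by 0.46 (-0.13 to 1.05).

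In the DNA repair group USP1, which removes ubiquitin from FANCD2 and PCNA, read 9.69, 9.82 and 10.03 against 9.87, 10.16 and 9.93 (0.14, 95% interval -0.13 to 0.40). USP48 differed by 0.01, USP11, which binds BRCA2, by -0.30 and USP37 by -0.39, none past the threshold. The other kept probe of USP1 gave -0.34 and the 3 of USP48 gave -0.56 to -0.07, opposite in sign to the brightest and not called. Of the signalling proteases, USP4 differed by -0.46 (-0.87 to -0.04; limma adjusted p = 0.109), passing with median scaling (-0.65), and USP15, its paralog, by 0.12 (-0.39 to 0.63). USP33, found at the ER and in the cytosol, differed by 0.51 (0.07 to 0.95; limma adjusted p = 0.0938). USP30 of the mitochondrial outer membrane differed by 0.25. USP12 and USP46, which share the activator WDR48, differed by 0.38 and -0.30 with intervals of -0.29 to 1.06 and -0.93 to 0.33. USP39, a splicing factor that lacks protease activity, read 9.84, 9.86 and 10.02 against 9.79, 9.97 and 10.00 (0.01, -0.24 to 0.26). USP6NL, which matches the symbol rule but encodes a GTPase-activating protein and no protease, differed by -0.09.

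USP43 had 0 control arrays above background and 3 histamine arrays. Only the latter let it pass the filter, so that it had to differ. It was at least 1.15-fold higher with histamine (limma adjusted p = 0.165). USP38 and USP53 differed by 0.13 and 0.03.

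Genes with more than 1 kept probe showed how far a value rests on the probe. There were 17 such members with 21 other kept probes, of which 9 had the sign of the brightest probe. USP8, which deubiquitinates receptors such as EGFR at endosomes, differed by -0.33 on its brightest probe (95% interval -0.63 to -0.04; limma adjusted p = 0.0992). Its other probe read 7.29, 7.55 and 8.52 on the control and 9.30, 9.11 and 9.28 on the histamine arrays, all higher, a difference of 1.44 (limma adjusted p = 0.000202 over kept probes). The probes of USP8 thus gave opposite signs, and the mean of them gave 0.55.

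For UBE2H the other probe gave 0.76 (7.10, 7.57 and 7.71 against 8.18, 8.23 and 8.23; limma adjusted p = 0.00714 over kept probes). That of USP13 gave -0.72 (6.77, 7.20 and 6.41 against 6.12, 6.02 and 6.08; limma adjusted p = 0.0420), against 0.20 on the brightest. Of the called members only UBE2E1 and UBE2J2 had another kept probe, with 0.14 and 0.11, the same sign and no call. The probes of USP33 gave 0.51 and -0.57, neither called. Probe positions within the transcripts were not used here.

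**Figure D3:**
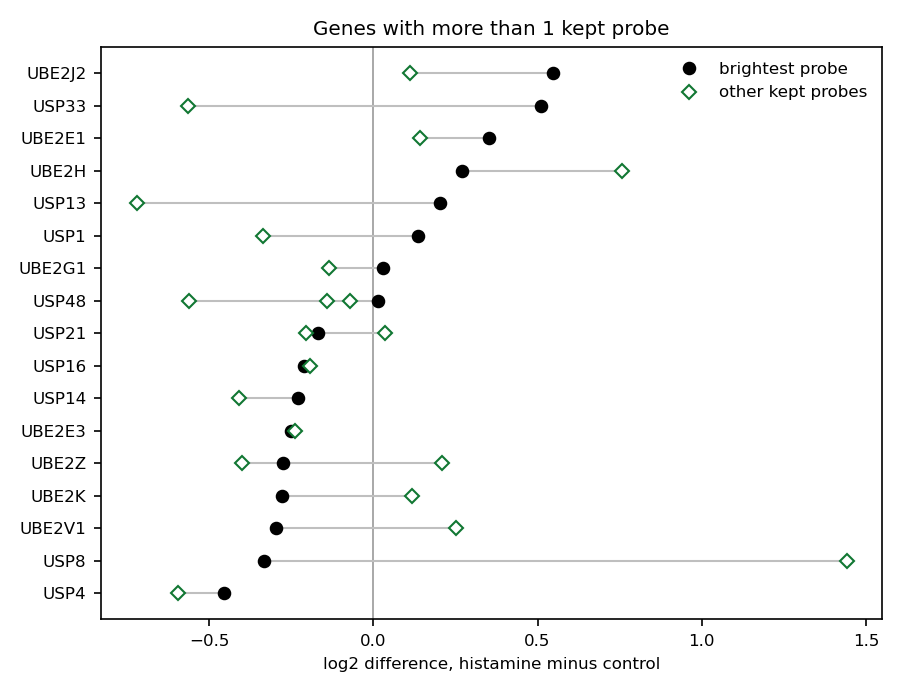
Log2 difference on the brightest probe (filled) and on the other kept probes (open) of the 17 members with more than 1 kept probe. USP8 has the widest gap, from -0.33 to 1.44.

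Related genes were compared within each array as log2 ratios of their brightest probes, whose shift shows unequal change of those probes. Of 10 pairs, 5 had ratios that did not overlap between groups. Of single genes 14.4% did not overlap in the upward and 22.9% in the downward direction, and no such share was computed for pairs in general. Of these 5 pairs 4 hold a called gene, and 3 of the 10 pairs are drawn from UBE2E1, UBE2E2 and UBE2E3, so the pairs are not independent. An exact 2-sided permutation test over the 20 groupings of 6 arrays cannot give a p-value under 0.10, and these 5 pairs reached it (adjusted over the 10 pairs, 0.20), so no pair can pass at 0.05. The ratio of UBE2G1 to UBE2G2 was 0.73, 0.77 and 0.73 on the control and 1.55, 1.19 and 1.36 on the histamine arrays, a shift of 0.62. That of UBE2Q1 to UBE2Q2 went from a mean of -0.90 ± 0.28 to -1.79 ± 0.30 (SD, n = 3), and that of UBE2V1 to UBE2V2 from -2.35 ± 0.27 to -3.03 ± 0.19. UBE2E1 and UBE2E2 each shifted upward against UBE2E3, by 0.60 and 0.43. The other kept probes of UBE2G1 and UBE2V1 gave -0.13 and 0.25, opposite in sign to the brightest (0.03 and -0.30). Those of UBE2E1 and UBE2E3 had the sign of the brightest. The pair of UBE2J1 and UBE2J2 overlapped (-0.40, exact permutation p = 0.2), as did the 3 pairs of USP genes and that of UBE2E1 and UBE2E2. A ratio between probes has no meaning as a ratio of transcript levels, so only its shift is compared.

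**Figure D4:**
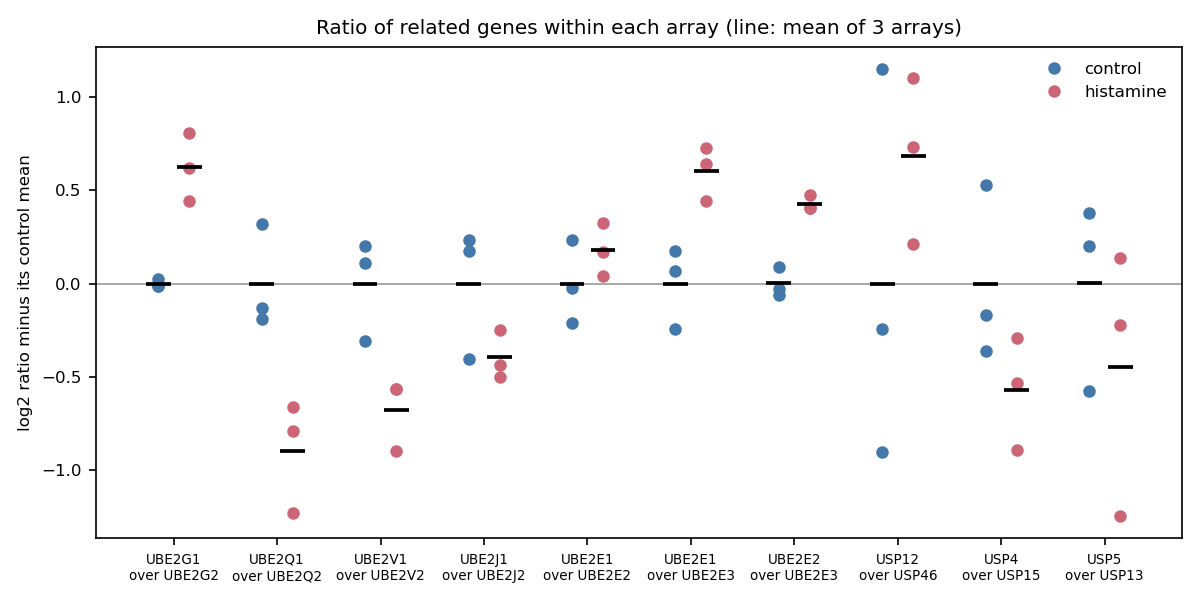
Log2 ratio of related genes within each array, minus its mean over the control arrays (lines are means of 3 arrays). Groups are separate for 5 of the 10 pairs, each of UBE2 genes.

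The wider pathway was read from 6 lists in the same fit. Of 10 measured genes for ubiquitin, its relatives and E1 enzymes, 1 rose and 3 fell, where 9.29% of all genes tested rose and 12% fell. The list's median log2 difference was -0.15, against -0.08 over all genes. UBA6, the E1 that serves UBE2Z, read 8.13, 8.44 and 9.18 on the control and 9.79, 9.62 and 9.81 on the histamine arrays and rose 2.23-fold (1.15 ± 0.20; limma adjusted p = 0.000531). Control replicate 3 was its highest control array. SUMO2 fell by 0.42 and SUMO3 by 0.36. Another probe of SUMO2 gave 1.19, and the mean of its kept probes was called higher (0.38, limma adjusted p = 0.0148). UBA1, the main ubiquitin E1, also fell (-0.36, with -0.46 and -0.43 on its other probes); as the list's smallest call it is named to account for the count.

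Of 20 other deubiquitinases measured, 3 rose and none fell, with a median of -0.02. The called share was 15%, all of it upward, where 9.29% of all genes rose, 12% fell and 21.3% changed in either direction. TNFAIP3 (A20), an NF-kB target that restrains NF-kB, rose 2.30-fold (6.80, 6.96 and 6.66 against 7.82, 7.80 and 8.41; limma adjusted p = 0.000507). OTUD6B rose by 1.00 on the log2 scale, with -0.49 on its other probe. PSMD14, the deubiquitinase of the proteasome lid, rose by 0.35 (limma adjusted p = 0.0452), a call lost in limma with median scaling (0.15) and without any 1 array except control replicate 3 (adjusted p = 0.0659 to 0.209).

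Of 6 cofactors of deubiquitinases, 1 rose and 2 fell, with a median of -0.27, against 9.29% and 12% of all genes and their median of -0.08. G3BP1, a stress granule protein that binds USP10, rose 2.42-fold, with -0.33 on its other probe. ENY2, a subunit of the SAGA module that holds USP22, fell by 0.53, and WDR20, an activator of USP12 and USP46, fell by 0.43. The WDR20 call was lost on leaving out any 1 array except control replicate 3 and histamine replicate 1 (limma adjusted p = 0.0595 to 0.0868).

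Among 16 genes of the cullin-RING core none rose and 4 fell, with a median log2 difference of -0.20. Thus 25% fell, where 12% of all genes fell, 9.29% rose and 21.3% changed in either direction. The median over all genes was -0.08. SKP2, the F-box protein that targets CDKN1B, fell by 0.53 (-0.30 on each of its other probes). CUL4A fell by 0.41 and SKP1 fell by 0.35, while their other probes gave 0.74 and 0.20. ELOB, an adaptor of CUL2 and CUL5 ligases, also fell (-0.34, with -0.43 on its other probe). CUL4A was no longer called without control replicate 1 (-0.32) or histamine replicate 2 (-0.35). SKP1 was no longer called without control replicate 2 (-0.27) or any 1 histamine array (-0.36 to -0.35). Of 14 HECT ligases, where 12% of all genes fell, none rose and 2 fell, HERC1 by 0.68 and WWP2 by 0.63. Of 12 RING and RBR ligases 1 fell, STUB1 by 0.41 with 0.13 on its other probe, and none rose. The medians of these lists were -0.11 and -0.07. The calls of HERC1, WWP2 and STUB1 each depended on single arrays: HERC1 on control replicates 1 and 2 and histamine replicate 3 (limma adjusted p = 0.0564 to 0.0723), WWP2 on control replicate 1 (0.0592), and STUB1 on control replicate 2 and histamine replicate 1 (0.0522 and 0.0682). The calls of SUMO2 and SUMO3 likewise ended without histamine replicate 1 (-0.32) and histamine replicate 3 (-0.35).

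**Figure D5:**
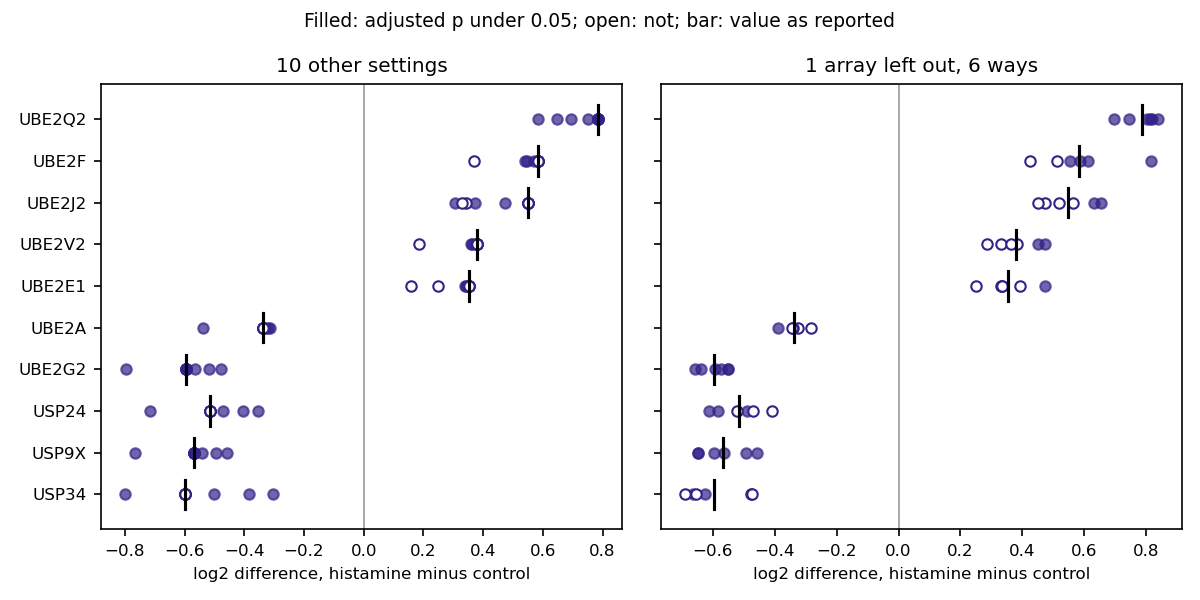
Log2 difference of the 10 called genes under 10 other processing settings (left) and with 1 array left out (right); filled points pass at an adjusted p under 0.05. UBE2Q2, UBE2G2 and USP9X are filled at all 16 points, and no point crosses 0.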

How the data were processed

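Total RNA of 6 samples was hybridized as biotin-labelled cRNA. Per the file headers, the deposited signal intensity is a mean over the beads of a probe, not normalized, and the detection p-value gives each signal's rank among negative control beads. Per the submitters' processing notes, GenomeStudio 2010.1 and lumi (no version) were used. The authors' processed table is on a log2-like scale with the same median on every array. Which transform was used is not stated in them, and it was tried as a second set of values.

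Background was removed from the 47322 probe signals by limma's normexp (3.58.1, R 4.3.3; offset 16, negative controls inferred from the detection p-values), followed by quantile normalization and log2. Differences of dim probes depend on this step, and were smaller with an offset of 50 or without correction (USP34 -0.60, -0.50 and -0.38). The 17871 probes detected (p-value under 0.05) on 3 or more of the 6 arrays were kept. A gene was represented by the brightest of its kept probes with 1 symbol, leaving 10406 genes. limma was fitted over all of them with an intensity trend and Benjamini-Hochberg adjustment; p-values are 2-sided. The number of arrays limits the precision.

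The members, lists and pairs were chosen with earlier results of these data known. Array values are given for called members, for the UBE2D, UBE2E and UBE2V groups and for the 4 brightest measured members of each family; other values, the pairs and the other probes were chosen after values were seen. Of each pathway list up to 3 called genes with the largest difference are named; UBA1 and ELOB, chosen after their values were seen, complete their lists' counts. For the 1.15-fold value of USP43, each dim control value was raised to the lowest detected value of its array. Alternatives are described in the closing section.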

Additional observations from a re-analysis of the deposited data

Results flagged for a closer look

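Other kept probes of 2 members, outside the main values, lay above the control arrays: that of USP8 by 1.44 and that of UBE2H by 0.76 on the log2 scale. Groups of 3 arrays are too small for the search for single outlying samples.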

How the results depend on the processing

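UBE2Q2, UBE2G2 and USP9X kept their calls in all 16 alternatives (10 settings and 6 fits without 1 array), while the other 7 called members lost theirs in 4 to 10 of them; no called member changed sign. UBE2 genes called higher numbered 5 as reported, 1 with median scaling, 2 with no filter on dim probes, 1 without the intensity trend and 1 to 4 with 1 array left out. UBE2 genes called lower numbered 2 as reported, 1 without the trend and 1 to 2 with 1 array left out. USP genes called higher numbered 0 as reported, 1 (USP8) with the mean of the kept probes and 0 to 1 with 1 array left out (USP49 without histamine replicate 1). USP genes called lower numbered 3 as reported, 5 with median scaling, 1 without the trend and 1 to 4 with 1 array left out. The UBE2 median was -0.20 with median scaling. The USP median was -0.28 with median scaling, -0.049 in the processed table, -0.018 with no filter, -0.19 with the stricter filter (all 6 arrays detected at 0.01) and -0.12 to -0.017 with 1 array left out. The mean of the kept probes, which brings in probes of opposite sign, turned USP8 to 0.55, SUMO2 to 0.38 and CUL4A to 0.17. SUMO2 was then called in the opposite direction (limma adjusted p = 0.0148), and CUL4A was not called (0.319). An offset of 50, no background correction (floor of 1) and robust empirical Bayes left each family's counts as they were. Over all genes, 967 rose and 1253 fell as reported, 456 and 1816 with median scaling, 682 and 794 with no filter, 637 and 735 without the trend, 624 and 596 without control replicate 2, and 693 and 766 without control replicate 1. The cause of these changes was not tested, other than that fewer arrays or other probes enter.

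Replicate numbers are shared between the groups. Deviations of same-numbered arrays from their group means correlated at -0.05 to -0.03 over genes. With 3 arrays per group, such values cannot show whether the numbers pair the samples. With the replicate number as a block, 3 UBE2 genes were higher and 2 lower, and 2 USP genes were lower. UBE2J2, UBE2E1 and USP34 lost their calls (limma adjusted p = 0.0553, 0.0560 and 0.0569). Over genes, no sample correlated best with its own number.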
